A study of Mus musculus with 16 samples.

Results

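Galactose transfer in the Golgi was described through 7 genes, C1galt1, C1galt1c1, B3galt1, B3galt2, B4galt1, B4galt5 and B4galt6, measured in the hippocampus of 16 mice. They were chosen by name, and every probe set (a set of short array probes summarised to 1 value) whose only platform gene symbol was one of them was taken, which gave 20 of 45101 probe sets on the array. The choice rested on the PIO against control values of these same 16 arrays and on how far several probe sets of 1 gene agreed, so those values are given as a description, with no test. Of the 20 probe sets, 18 passed a filter on low values (a mean over all 16 arrays above 3.58 log2 units, the 40th percentile), and each of the 7 genes kept at least 1. The other two, for C1galt1c1 and B4galt5, lay below it.

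Total hippocampal RNA was measured on Affymetrix mouse arrays, 1 array per animal. The PIO group of 8 animals received a diet with pioglitazone (PIO) at 84 ppm, a daily dose of about 18 mg/kg, from 10 months of age and for about 14 weeks, and the control group of 8 received a control diet. PIO is a thiazolidinedione, a drug class that activates the nuclear receptor PPAR gamma. All 16 animals were female 3xTG-AD mice, 14 months old, and all carried the same model of Alzheimer's disease, in which mutant human APP and tau transgenes are driven by the neuronal Thy1 promoter beside a mutated presenilin gene. The 16 arrays held no animal without these alleles, so nothing here compares the model with a normal mouse. The deposited values were on a log2 scale, and 8 arrays per diet set the limit of precision. Of 10 hippocampal neuron markers 9 were measured, with mean levels of 8.16 to 13.0 log2 units. A number in each array's label was 1 to 6 in 2 PIO and 4 control arrays and 10 to 24 in 6 PIO and 4 control arrays. No label says what it stands for. Within each range every PIO number was higher than every control number, so diet and order within a range cannot be told apart.

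Galactosyltransferases move galactose from the sugar nucleotide UDP-galactose onto a growing glycan, and the acceptor they recognise decides which chain they build. C1galt1 adds galactose to the first sugar of mucin-type O-glycans, and C1galt1c1 encodes Cosmc, the chaperone of the endoplasmic reticulum without which the C1galt1 enzyme does not fold. B3galt1 and B3galt2 add galactose to N-acetylglucosamine in one linkage, and B4galt1 adds it in another to make N-acetyllactosamine on glycoproteins. B4galt5 and B4galt6 make lactosylceramide, the lipid from which the gangliosides of neuronal membranes are built.

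Promoter sequence of the 2 genes with the largest differences is shown because PIO acts through a receptor with a known DNA element. Windows of 250 bases before each annotated start were taken from RefSeq (GRCm38.p6), where 5 of the 7 genes had 6 windows. Capitals mark the GC box GGGCGG on either strand, and the windows were also searched for AGGTCA, the unit of the PPAR element, and for DR1, the element itself, in which 2 such units stand in the same direction with 1 base between them.
C1galt1, chr6:7844974-7845223: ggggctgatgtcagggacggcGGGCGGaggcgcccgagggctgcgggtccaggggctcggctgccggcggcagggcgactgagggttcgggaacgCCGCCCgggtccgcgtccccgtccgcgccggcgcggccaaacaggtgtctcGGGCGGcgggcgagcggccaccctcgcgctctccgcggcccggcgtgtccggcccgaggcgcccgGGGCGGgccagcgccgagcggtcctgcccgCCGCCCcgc
B3galt1, upstream start, chr2:67565439-67565688: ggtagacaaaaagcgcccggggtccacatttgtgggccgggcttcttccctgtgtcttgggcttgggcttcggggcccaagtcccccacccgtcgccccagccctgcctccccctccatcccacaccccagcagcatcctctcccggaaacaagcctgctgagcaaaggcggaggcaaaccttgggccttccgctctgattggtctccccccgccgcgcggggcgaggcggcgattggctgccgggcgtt
B3galt1, downstream start, chr2:68104422-68104671: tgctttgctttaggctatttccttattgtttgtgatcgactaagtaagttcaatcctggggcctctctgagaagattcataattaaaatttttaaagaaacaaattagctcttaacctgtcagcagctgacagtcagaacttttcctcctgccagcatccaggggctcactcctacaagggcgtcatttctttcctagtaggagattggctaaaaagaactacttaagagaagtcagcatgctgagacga

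The C1galt1 window lies on the plus strand of chromosome 6 and held 5 GC boxes and 44 CG pairs. B3galt1 has 2 annotated starts on the plus strand of chromosome 2, 539.0 kb apart. The upstream window held 18 CG pairs and the downstream window 3, against a median of 6 over all 32851 windows. Neither held a GC box. Of the 6 windows 0 held DR1, found in 0.0335% of all windows, and 0 held AGGTCA, found in 14.0%. GGGCGG was in 3 of the 6, those of C1galt1, B4galt1 and B4galt5, and in 32.7% of all windows. Overlapping matches were counted on both strands. No match says only that these letters are not in these windows.

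Across the 7 genes the largest differences were on 1 probe set each of C1galt1 (0.37 log2 units) and B3galt1 (0.40). B3galt1 1441396_at (0.23) and B4galt6 1423228_at (0.18) came next. Of the 18 probe sets above the filter, 16 were higher and 2 lower with PIO, with a median difference of 0.055 log2 units, beside a median of 0.0018 over all 27022 probe sets tested. The difference was smaller than its moderated SE in 11 of the 18 and at least 2 times its SE in 3. In limma's test 0 of the 18 probe sets passed an adjusted p of 0.05, as did 0% of all probe sets. At an unadjusted p under 0.05 there were 3 of 18, beside 7.4% of all probe sets, and all 3 were higher with PIO, beside 3.69% of all. In 0 of 18 did all PIO arrays lie above all control arrays, beside 0.0222% of all. These counts describe genes that were picked on this contrast, and nothing is read from them.

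**Figure D1:**
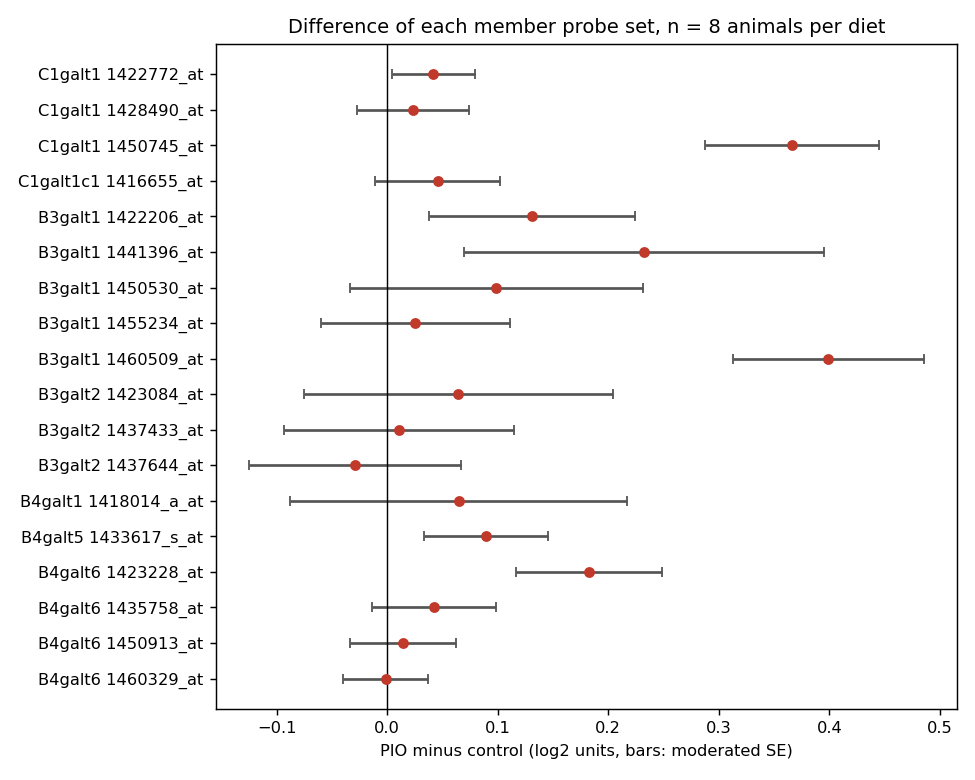
Difference of each of the 18 probe sets above the filter, PIO minus control in log2 units (x axis), with the moderated SE as bars and n = 8 animals per diet. C1galt1 1450745_at (0.37) and B3galt1 1460509_at (0.40) stand to the right, B4galt6 1423228_at (0.18) and B3galt1 1441396_at (0.23) between, and the others lie between -0.029 and 0.13.

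C1galt1, the O-glycan galactosyltransferase, was higher with PIO on the probe set 1450745_at. Its lowest, median and highest values were 7.22, 7.49 and 7.81 log2 units in PIO animals, against 6.89, 7.13 and 7.29 in control animals. The groups overlapped only narrowly, since 7 of 8 control animals lay below the lowest PIO animal and 6 of 8 PIO animals above the highest control animal. The means were 7.47 ± 0.20 with PIO and 7.11 ± 0.12 in controls (SD, n = 8 each), a difference of 0.37 (SE 0.079), or 1.29-fold. PIO animal 15 was highest at 7.81, followed by PIO animals 13 and 14, both at 7.59. Control animal 1, at 7.29, stood above PIO animals 10 and 12 and above all other controls.

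The other probe sets of C1galt1 had differences close to their SE or below it. On 1428490_at the lowest, median and highest values were 5.64, 5.68 and 5.91 with PIO, against 5.50, 5.71 and 5.81 in controls, and the difference was 0.024 (SE 0.050). On 1422772_at the values were 4.44, 4.46 and 4.69 with PIO and 4.41, 4.45 and 4.47 in controls, with a difference of 0.042 (SE 0.038). Apart from PIO animal 14, at 4.69, every animal on 1422772_at lay between 4.41 and 4.49, a band far narrower than that of 1450745_at. The control SD of 1422772_at was 0.025, close to the 0.026 of C1galt1c1 1443706_at, which lay below the filter. With so little variation, its difference and correlations say little about C1galt1. Whether it measured transcript above background was not tested. Across the 16 arrays, with each diet's mean subtracted, 1450745_at followed neither 1428490_at nor 1422772_at closely. Its Pearson correlation was 0.11 with 1428490_at and 0.18 with 1422772_at (Spearman's rho 0.079 and 0.17), given without a test because agreement was part of the choice. Where each probe set lies on the transcript was not analysed here.

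**Figure D2:**
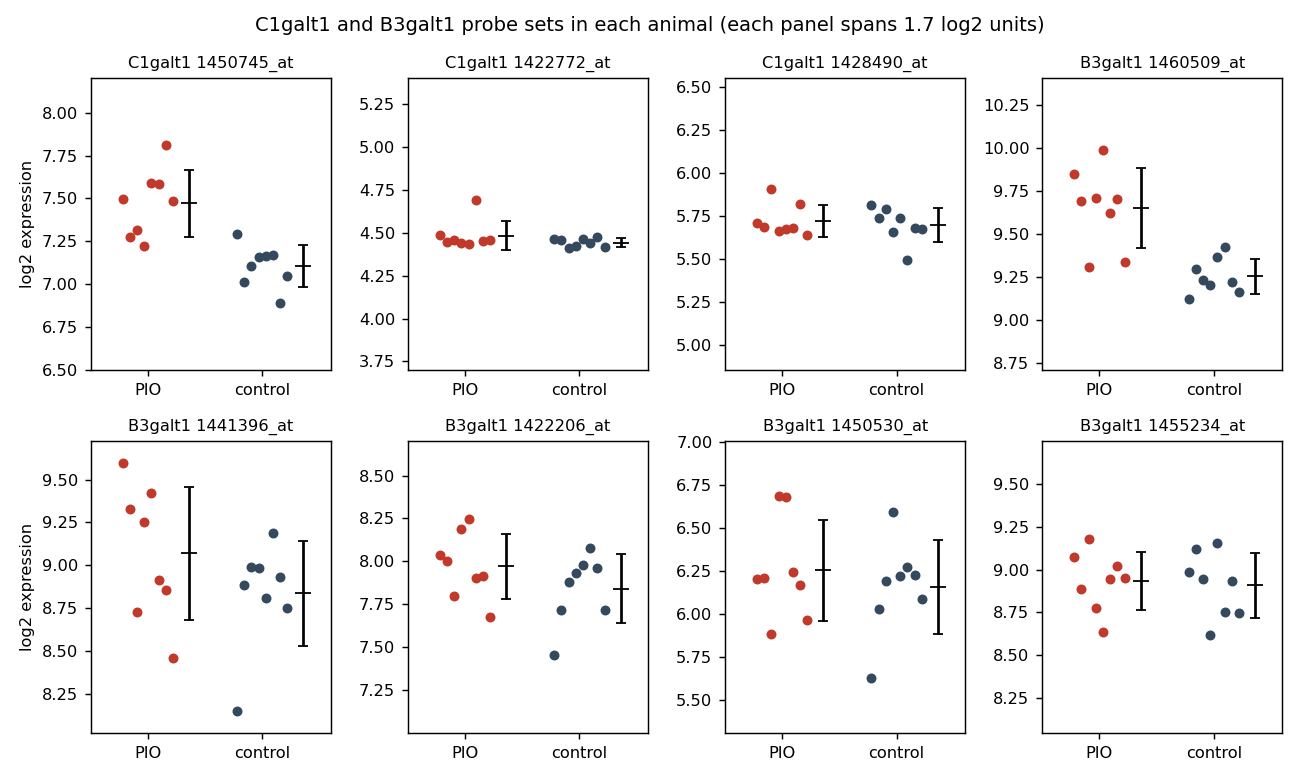
Log2 expression (y axis, 1.7 log2 units in every panel) of the 3 C1galt1 and 5 B3galt1 probe sets, 1 point per animal in order of animal number, with mean and SD as bars (n = 8 per diet). PIO animals sit mostly above control animals in C1galt1 1450745_at and B3galt1 1460509_at, and the diets overlap in the other 6 panels.

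C1galt1c1, the Cosmc chaperone gene, did not differ between the diets by more than the spread between animals. Its probe set 1416655_at ranged from 11.13 through a median of 11.31 to 11.40 log2 units with PIO, and from 11.10 through 11.19 to 11.41 in controls. The difference was 0.046 (SE 0.057), and the groups overlapped over nearly their whole range. The other probe set, 1443706_at, lay below the filter at 3.43 to 3.48 with PIO and 3.42 to 3.48 in controls.

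B3galt1, which adds galactose to N-acetylglucosamine, was higher with PIO on 1460509_at. The lowest, median and highest values were 9.31, 9.70 and 9.99 log2 units in PIO animals, against 9.12, 9.23 and 9.42 in control animals. PIO animals 11 and 16, at 9.31 and 9.34, lay within the control range, and the other 6 lay above it. PIO animal 16 also stood apart in thalamic markers, with a list mean of 1.31 relative to all arrays. That of the other PIO animals was -0.21 to 0.039. The part of these markers in the B3galt1 values was not tested. The means were 9.65 ± 0.23 with PIO and 9.25 ± 0.10 in controls (SD, n = 8 each), a difference of 0.40 (SE 0.086), or 1.32-fold.

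Of the other 4 probe sets of B3galt1 all had positive differences, and all were smaller than 2 times their SE. Probe set 1441396_at differed by 0.23 (SE 0.16). It ran from 8.46 to 9.59 with PIO (median 9.08) and from 8.15 to 9.19 in controls (median 8.91), the widest spread of the 18 probe sets, with a range over all arrays of 1.44. The diets overlapped in part, with PIO animals 9, 10, 12 and 13 above the highest control animal and control animal 1 below the lowest PIO animal. Probe set 1422206_at ran from 7.68 to 8.25 with PIO and from 7.45 to 8.08 in controls, a difference of 0.13 (SE 0.093). Probe set 1450530_at ran from 5.88 to 6.69 with PIO and from 5.63 to 6.59 in controls, a difference of 0.099 (SE 0.13). Probe set 1455234_at, with 8.63 to 9.18 with PIO and 8.62 to 9.16 in controls, differed by 0.026 (SE 0.086). Of the 5, 4 moved together from animal to animal. With each diet's mean subtracted, the 6 pairs among 1460509_at, 1441396_at, 1422206_at and 1450530_at had Pearson correlations of 0.62 to 0.88 (Spearman's rho 0.51 to 0.90). Probe set 1455234_at ran against them, with correlations of -0.68 to -0.31 (rho -0.59 to -0.071). Its highest Pearson correlation among the 18 was with B3galt2 1423084_at, at 0.70 (rho 0.72), and its highest rho was with C1galt1 1428490_at, at 0.76 (Pearson 0.64). These are descriptions over the same 16 arrays, with no test.

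**Figure D3:**
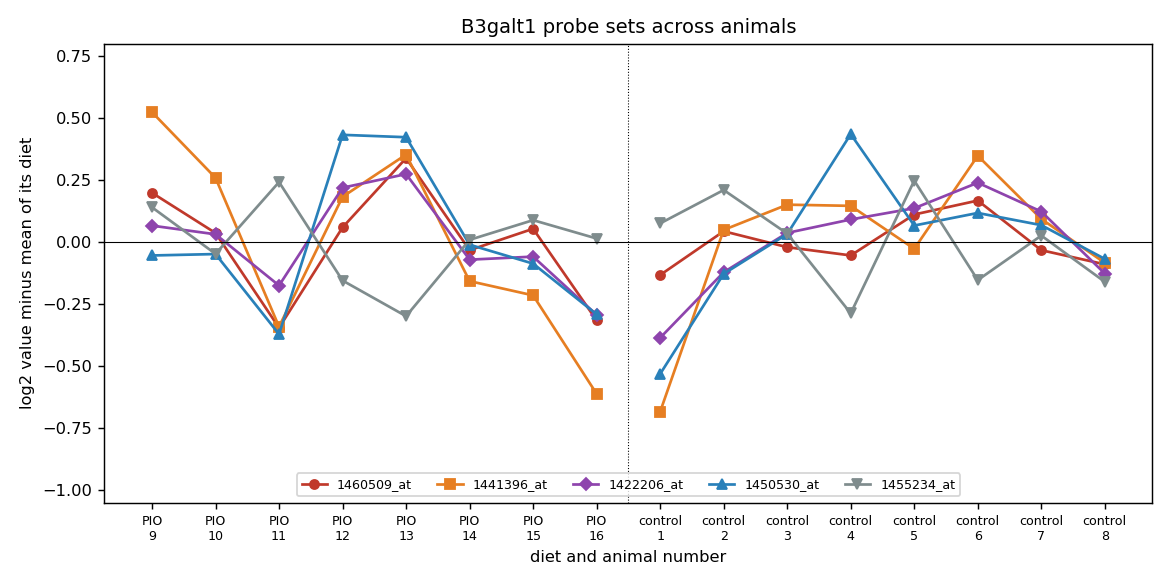
Log2 value of the 5 B3galt1 probe sets minus the mean of each diet (y axis) in each of the 16 animals (x axis). The 4 probe sets other than 1455234_at dip together in PIO animals 11 and 16 and control animal 1, while 1455234_at is high in PIO animal 11 and lowest in PIO animal 13 and control animal 4.

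B3galt2, the second enzyme of this kind, did not differ by more than the spread between animals on any of its 3 probe sets. Probe set 1423084_at ranged from 9.20 to 9.91 with PIO (median 9.54) and from 9.05 to 9.84 in controls (median 9.57), with a difference of 0.064 (SE 0.14). The others differed by 0.011 (1437433_at, SE 0.10) and -0.029 (1437644_at, SE 0.0955). These 3 moved together from animal to animal, with Pearson correlations of 0.50 to 0.57 (rho 0.54 to 0.63).

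B4galt1, the N-acetyllactosamine enzyme of glycoproteins, was measured by a single probe set, the lowest in mean level of the 18. Its lowest, median and highest values were 3.70, 4.23 and 5.03 log2 units with PIO, against 3.88, 4.24 and 4.51 in controls, and the difference was 0.065 (SE 0.15). The PIO range enclosed the control range at both ends, with PIO animal 11 highest and PIO animal 9 lowest. In arrays 1 to 6 alone, with 2 PIO and 4 control animals, the difference was -0.28 (SE 0.22). The level went with choroid plexus genes, which make up the tissue that secretes cerebrospinal fluid and borders the hippocampus. All 11 measured choroid plexus markers, of 12 listed, had higher means with PIO. Their summed level ran from 47.0 to 117 log2 units in PIO animals and from 51.0 to 115 in controls. All 11 were read from probe sets above the filter on low values, so none could be at 0 in all arrays. Their mean relative to all arrays fell into separate ranges, 0.66 to 2.69 in 10 arrays (6 PIO, 4 control) and -3.66 to -2.27 in 6 arrays (2 PIO, 4 control). B4galt1 lay between 4.14 and 5.03 (median 4.39) in the 10 arrays and between 3.70 and 4.15 (median 3.95) in the 6. Only 1 of the 10 lay within the range of the 6. The C1galt1c1 probe set 1416655_at had medians of 11.34 in the 10 arrays and 11.16 in the 6, with 6 of the 10 above the highest of the 6. The B3galt2 probe sets ran the other way, with medians of 9.50 in the 10 arrays and 9.72 in the 6 on 1423084_at. On 1437644_at the medians were 6.40 and 6.61. The ranges overlapped widely, at 9.05 to 9.87 in the 10 and 9.06 to 9.91 in the 6 on 1423084_at. On 1437644_at they were 6.24 to 6.67 and 6.27 to 6.92. This split was made by the markers after the values were seen, and it has no test. With the choroid plexus list mean as a covariate, the PIO minus control difference of B4galt1 was -0.064 (SE 0.11) and that of C1galt1c1 1416655_at was 0.0088 (SE 0.049). On B3galt2 1423084_at it was 0.078 (SE 0.15) and on 1437644_at 0.017 (SE 0.092). In whole tissue fewer cells of a type and less RNA per cell cannot be told apart.

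**Figure D4:**
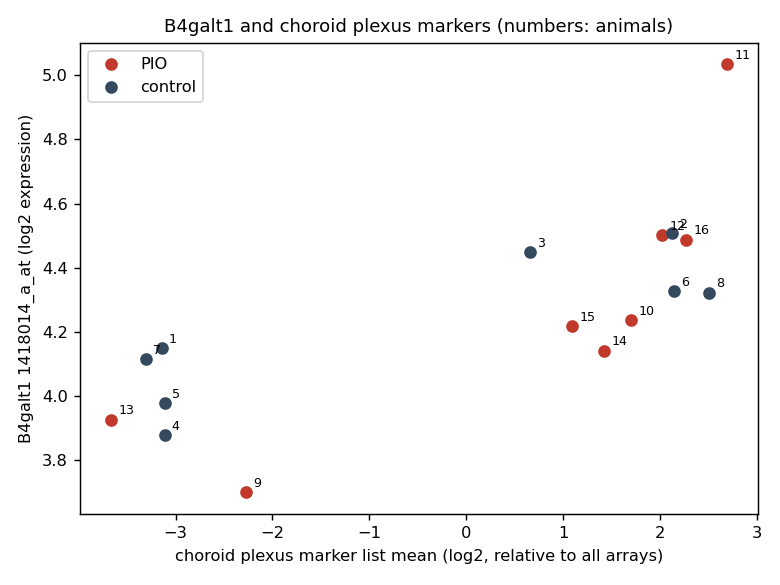
Level of B4galt1 1418014_a_at (y axis, log2 expression) against the mean of 11 choroid plexus markers (x axis, log2, relative to all arrays), 1 point per animal, numbered. The 6 animals at the left lie between 3.70 and 4.15 and the 10 at the right between 4.14 and 5.03, with PIO and control animals on both sides.

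B4galt5, a lactosylceramide synthase gene, ranged from 9.14 to 9.44 log2 units with PIO (median 9.20) and from 8.91 to 9.28 in controls (median 9.15) on 1433617_s_at. The difference of 0.090 (SE 0.056) was under 2 times its SE, and 7 of 8 PIO animals lay above the control median. The second probe set, 1421967_at, lay below the filter, with all arrays between 1.72 and 2.15.

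B4galt6, the other lactosylceramide synthase gene, was read by 4 probe sets that did not share a difference. On 1423228_at the lowest, median and highest values were 10.06, 10.38 and 10.56 with PIO, against 10.07, 10.16 and 10.43 in controls. The difference was 0.18 (SE 0.066), with 7 of 8 PIO animals above the control median, although PIO animal 10 was the lowest of all 16. The other probe sets differed by 0.042 (1435758_at, SE 0.056), 0.014 (1450913_at, SE 0.048) and -0.0015 (1460329_at, SE 0.039). On 1450913_at, too, 7 of 8 PIO animals lay above the control median. The probe set 1460329_at was among the steadiest, with a range of 0.22 log2 units over all 16 arrays. In arrays 1 to 6 alone the difference of 1423228_at was 0.022 (SE 0.13), against 0.23 (SE 0.060) in arrays 10 to 24. Among these 4 probe sets the closest pair was 1450913_at and 1460329_at, with a Pearson correlation of 0.62 (rho 0.47), and the 5 other pairs lay between -0.0049 and 0.36 (rho -0.0059 to 0.15).

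Within gene the picture was therefore uneven. The 22 pairs of probe sets of the same gene had a median Pearson correlation of 0.30 and a range of -0.68 to 0.88. Most of these pairs came from B3galt1, with 5 probe sets above the filter, and B4galt6, with 4. Genes with 1 probe set above the filter gave none. The 131 pairs of different genes had a median of -0.046 and a range of -0.67 to 0.70. All of them share the same 16 arrays, and some probe sets of 1 gene may share probes.

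The array number, which the choice of genes had not used, was tested with diet in the same limma fit. Arrays 10 to 24 minus arrays 1 to 6 differed by between -0.14 and 0.14 log2 units over the 18 probe sets, and 0 of 18 passed an adjusted p of 0.05, where 0.0037% of all probe sets did. The smallest adjusted p among them was 0.443. At an unadjusted p under 0.05 there was 1 of 18, B4galt6 1460329_at, lower in arrays 10 to 24 by 0.081 (SE 0.037), beside 10.8% of all probe sets. The PIO difference of C1galt1 1450745_at was 0.43 (SE 0.11) in arrays 10 to 24 and 0.24 (SE 0.11) in arrays 1 to 6. That of B3galt1 1460509_at was 0.32 (SE 0.13) in arrays 10 to 24 and 0.56 (SE 0.084) in arrays 1 to 6. That of B3galt1 1441396_at was 0.018 (SE 0.17) in arrays 10 to 24 and 0.71 (SE 0.25) in arrays 1 to 6. The controls in arrays 1 to 6 included control animal 1, at 8.15 on this probe set, against 8.75 to 9.19 in the other controls. The PIO arrays in 1 to 6 were those of animals 9 and 10, which stood apart in endothelial markers. Their endothelial list means were -0.65 and -0.62 relative to all arrays, and those of the other 6 PIO animals 0.012 to 0.30, against -0.25 to 0.36 in controls. Whether these differed between the ranges was not tested.

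PIO animals 14 and 15, among the highest for C1galt1, also had marker levels unlike the others. Their hippocampal neuron list means were -0.60 and -0.68 relative to all arrays, against -0.17 to 0.24 in controls, and their striatal list means were 0.92 and 1.11, against -0.55 to 0.37 in controls. Of the 9 measured hippocampal markers 8 had lower means with PIO and 1 had a higher mean, with summed levels of 85.9 to 94.9 log2 units in PIO animals and 90.5 to 94.2 in controls. All 7 measured striatal markers, of 11 listed, had higher means with PIO, with summed levels of 59.2 to 69.3 in PIO animals and 57.7 to 64.1 in controls. All 13 measured myelin markers, of 14 listed, had lower means with PIO, with summed levels of 148 to 157 in PIO animals and 153 to 159 in controls. All 11 measured microglial markers, of 12 listed, also had lower means with PIO, with summed levels of 99.3 to 104.0 in PIO animals and 99.7 to 106.9 in controls. Of 10 astrocyte markers 8 had lower means with PIO, with summed levels of 118.8 to 122.0 in PIO animals and 120.7 to 123.3 in controls. Of 9 measured thalamic markers, of 10 listed, 8 had higher means with PIO, with summed levels of 71.6 to 85.3 in PIO animals and 71.9 to 73.0 in controls. The thalamic list mean relative to all arrays was 1.31 in PIO animal 16. It was -0.21 to 0.039 in the other PIO animals and -0.18 to -0.054 in controls. Of 6 measured endothelial markers, of 8 listed, 4 had lower means with PIO, with summed levels of 42.7 to 48.4 in PIO animals and 45.1 to 48.8 in controls. Only probe sets above the filter on low values were used for these lists, so no marker could be at 0 in all arrays. The part of any of these marker lists in the differences was not tested. Without animals 14 and 15 the difference of C1galt1 1450745_at was 0.29 (SE 0.071). With the hippocampal list mean as a covariate it was 0.29 (SE 0.060), with the striatal list mean 0.31 (SE 0.082) and with the myelin list mean 0.25 (SE 0.0777). On B3galt1 1460509_at the difference was 0.40 (SE 0.099) without the 2 animals and 0.38 (SE 0.092) with the hippocampal covariate. It was 0.41 (SE 0.098) with the striatal covariate and 0.38 (SE 0.10) with the myelin one. These refits only describe the contrast on which the genes were chosen.

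Within diets, C1galt1 1450745_at was lower where hippocampal neuron markers were higher. Pearson's r was -0.74 (p = 0.00265) and Spearman's rho -0.75 (p = 0.00198) over 16 arrays with diet means subtracted, by a two-sided permutation test within diets with 100000 draws. In all, 126 such relations were computed, between the 18 probe sets and 7 marker lists, and 0 passed after Benjamini-Hochberg adjustment, where this one had an adjusted p of 0.334 for r and 0.110 for rho in the permutation test. Without PIO animals 14 and 15, the arrays farthest from the median of the list, r was -0.59. Over all 16 arrays r was -0.53 on C1galt1 1422772_at and 0.060 on 1428490_at. B4galt6 1423228_at ran against astrocyte markers (r = -0.68, rho = -0.72, permutation adjusted p = 0.356 and 0.110) and B4galt6 1450913_at with microglial markers (r = 0.64, rho = 0.81, permutation adjusted p = 0.635 and 0.110). Without the 2 farthest arrays r was -0.66 and 0.65. Neither passed the adjustment. On the other B4galt6 probe sets r was 0.0084 to 0.086 with astrocyte markers and -0.10 to 0.26 with microglial markers. B3galt1 1460509_at ran against thalamic markers (r = -0.56, rho = -0.36, permutation adjusted p = 0.719 and 0.689). The other B3galt1 probe sets had r of -0.53 to 0.096 with that list. Without PIO animals 13 and 16, the arrays farthest from its median, r of 1460509_at was -0.064.

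**Figure D5:**
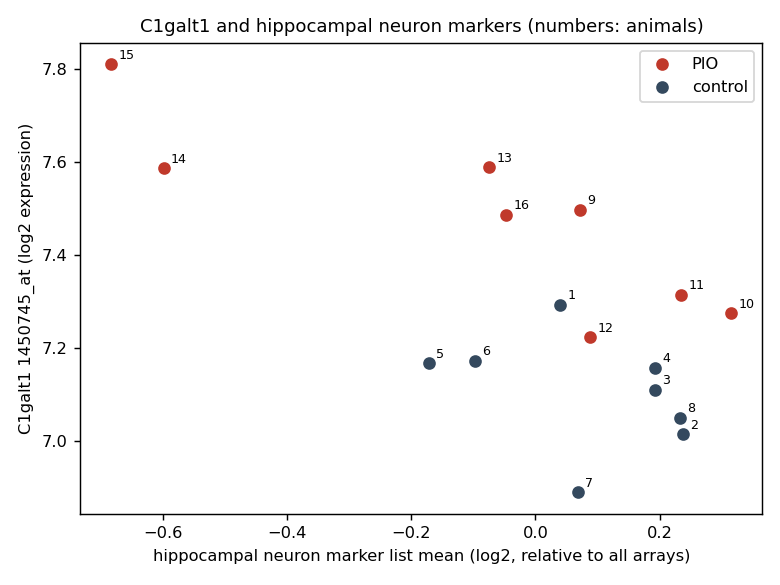
Level of C1galt1 1450745_at (y axis, log2 expression) against the mean of 9 hippocampal neuron markers (x axis, log2, relative to all arrays), 1 point per animal, numbered. PIO animals 14 and 15 lie at the far left with levels of 7.59 and 7.81, and the control animals lie between 6.89 and 7.29.

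The genes whose animal-to-animal pattern was most like each of the 7 were found among 12265 others by Pearson correlation over the 16 arrays with diet means subtracted, each gene by its highest-mean probe set. For C1galt1 they were Bnip5 (0.89), Trpv2, a cation channel gene (0.86), and Bag2, a cochaperone gene (0.86). For C1galt1c1 they were Etfbkmt (0.86), the interferon-induced gene Ifi27 (0.86) and Ppfibp2 (0.85). For B3galt1 they were the DNA repair gene Apex2 (0.84), Baalc (0.83) and Drosha (0.82), the nuclease of microRNA processing. For B3galt2 they were the ubiquitin ligase gene Trim9 (0.93), Srsf12 (0.93) and Chm (0.92), which escorts Rab proteins to their lipid anchor. For B4galt1 they were Sod3, an extracellular superoxide dismutase (0.94), Antxr1 (0.93) and the receptor gene Notch2 (0.93). For B4galt5 they were the transcriptional repressor gene Scrt1 (0.89), the scaffold gene Mpp2 (0.87) and Brd3 (0.86). For B4galt6 they were Cmas (0.87), whose enzyme activates sialic acid for transfer to glycans, Tsr1 (0.85) and the growth factor gene Fgf9 (0.84). None of the 7 had another of the 7 among its 3 closest genes. The highest of 12265 correlations over 16 arrays is high by construction, and no test was attached. The genes named belong to 1 probe set of each gene and may not hold for its other probe sets. C1galt1 1450745_at had correlations of 0.11 and 0.18 with the other C1galt1 probe sets. B4galt6 1460329_at had -0.0049 to 0.62 with the other B4galt6 probe sets.

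The other genes of these pathways showed no difference that passed the test. In 8 lists of enzymes and transporters, 86 of 108 listed genes were measured above the filter, 44 higher and 42 lower with PIO, with a median difference of 0.0010, beside 0.0045 over all 12266 genes. In limma's test 0 of 86 passed an adjusted p of 0.05, as did 0% of the 12266 genes, each by its highest-mean probe set. At an unadjusted p under 0.05 there were 11 of 86, 4 higher and 7 lower, beside 6.71% of all genes. That count was 0 in the largest set of arrays with 1 label code and 4 without PIO animals 14 and 15. The 16 genes named here had limma adjusted p values of 0.628 to 0.916.

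The list of UDP-galactose supply and related sugar genes had 6 of 7 measured genes higher and a median of 0.072. Not all of them supply UDP-galactose, and the median is that of Slc35a3, a transporter of another nucleotide sugar. Slc35a2, which carries UDP-galactose into the Golgi, had lowest, median and highest values of 9.30, 9.54 and 9.79 log2 units with PIO, against 9.21, 9.33 and 9.58 in controls, a difference of 0.17 (SE 0.073). Ugp2, which makes UDP-glucose, went the other way by -0.12 (SE 0.049), with all 8 PIO animals below the control median. None of the 7 passed the test.

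Among the other galactosyltransferases 7 of 10 were higher, with a median of 0.018. Colgalt1, which glycosylates collagen, differed by -0.13 (SE 0.050). Ugt8a, which makes galactosylceramide of myelin, differed by -0.25 (SE 0.12) and is itself 1 of the myelin markers above.

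Genes that start and branch mucin-type O-glycans, the pathway of C1galt1, were split, with 9 of 19 higher and a median of -0.055. Galnt7, which adds N-acetylgalactosamine to peptides that already carry it, had values of 9.33, 9.47 and 9.70 with PIO (lowest, median, highest), against 9.12, 9.35 and 9.60 in controls, a difference of 0.16 (SE 0.066). St6galnac3, which adds sialic acid, differed by -0.26 (SE 0.11), with all 8 PIO animals below the control median. Among N-glycan enzymes 11 of 19 were higher, with a median of 0.021, and the trimming mannosidase genes Man2a1 and Man2a2 differed by -0.17 (SE 0.075) and -0.14 (SE 0.058).

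In the glycosphingolipid list, the pathway of B4galt5 and B4galt6, 2 of 10 genes were higher, with a median of -0.031. Ugcg, which makes the glucosylceramide that both enzymes extend, ranged from 9.98 to 10.28 with PIO (median 10.19) and from 9.97 to 10.20 in controls (median 10.07), a difference of 0.12 (SE 0.048). Gal3st1, which makes the sulfatide of myelin, differed by -0.24 (SE 0.12).

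Of the N-acetyllactosamine genes 5 of 7 were higher, with a median of 0.024. Gcnt2, which branches these chains, had values of 9.24, 9.37 and 9.70 with PIO (lowest, median, highest), against 8.96, 9.22 and 9.35 in controls, with all 8 PIO animals above the control median and a difference of 0.21 (SE 0.069). B3gnt9 differed by -0.14 (SE 0.084). In the list of the glycosaminoglycan linker and related enzymes 3 of 8 were higher, with a median of -0.0093. The glucuronosyltransferase genes B3gat1, a related enzyme, and B3gat3, of the linker, differed by -0.063 (SE 0.041) and -0.073 (SE 0.048). In the list of lysosomal galactose removal and related glycosidases 1 of 6 was higher, with a median of -0.015. Galc, the galactosylceramidase gene, differed by -0.21 (SE 0.15) and Hexa by 0.032 (SE 0.054).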

How the data were processed

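Expression in 16 hippocampi, 8 PIO and 8 control, was taken from the deposited table of 1 log2 value per probe set and array. The log2 scale was read from the values (0.326 to 16.6). Per the submitters' processing notes the tools were MAS5, GCRMA and R 2.7.1, and no source used here says which of them made the deposited log2 values. After 64 control probe sets were left out, 27022 of 45037 passed the filter. Platform annotation gave 34945 probe sets 1 symbol, 932 several and 9160 none, and 34741 were matched to RefSeq by Entrez identifier. Differences are PIO minus control from limma 3.58.1 in R 4.3.3 (lmFit, eBayes, diet as the only term, Benjamini-Hochberg over all 27022), with moderated SEs. The fit was tested on simulated data. Array-number range was added for its own test. Lists used the highest-mean probe set per gene, and the 2 members with the smallest p were named. The members, the lists, the array-number ranges and the rule for the 3 most similar genes were chosen with earlier results of these data known. Separately numbered subjects, per the labels, are the replicates. A label code formed 3 sets of arrays, with 6 PIO and 5 control, 1 and 2, and 1 and 1. No detection call entered any step. The 34 other settings are in the closing section.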

Additional observations from a re-analysis of the deposited data

Results flagged for a closer look

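Within-diet values of the 20 probe sets and of the 8 marker lists were searched for an animal that stood apart from the other 7, by Dixon's test at the 95% level. Of 56 groups 6 had one, where chance gives about 1 in 20, or 2.8. PIO animal 11 accounted for 3 of them. It was at 8.61 on B3galt2 1437433_at, against 9.00 to 9.24 in the other PIO animals, at 9.44 on B4galt5 1433617_s_at, against 9.14 to 9.24, and at 2.15 on B4galt5 1421967_at, against 1.73 to 1.79, the last below the filter on low values. PIO animal 14 was at 4.69 on C1galt1 1422772_at, against 4.44 to 4.49 in the other PIO animals. Control animal 1 was at 8.15 on B3galt1 1441396_at, against 8.75 to 9.19 in the other controls. The thalamus marker list mean was 1.31 in PIO animal 16, against -0.21 to 0.039 in the other PIO animals.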

How the results depend on the processing

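No paired analysis was possible because every animal has its own subject number. Under all 34 other settings 0 probe sets passed an adjusted p of 0.05 for PIO against control, and 0 member probe sets did for array number in the 31 that could be fitted. C1galt1 1450745_at was higher with PIO (0.24 to 0.43), as was B3galt1 1460509_at (0.32 to 0.56), each in every setting that kept it. The genes were chosen on this contrast and each setting reuses these arrays, so these signs are a description and not a check. Of the settings 3, arrays 1 to 6, the hippocampal covariate and the removal of PIO animals 14 and 15, were added after seeing the data. With only arrays 1 to 6, differences moved by over 1 SD for B3galt1 1441396_at (0.71), B4galt1 (-0.28) and B4galt6 1423228_at (0.022). The count of probe sets at an unadjusted p under 0.05 was 859 with 1 probe set per gene (12266 tested), 761 in the largest label code, 1312 with the striatal and 1238 with the myelin covariate, 1257 in arrays 1 to 6 and 1263 without PIO animals 14 and 15, and 1461 to 2606 with 1 animal left out. For array number the count past the adjusted threshold was 22 at the 60th percentile, 171 with array weights, 3 with a trended robust prior or the choroid covariate, and 0 without shared-sequence probe sets, with a common median, with the label code as a block or alone, with the striatal, myelin or hippocampal covariate and without PIO animals 14 and 15. It was 0 to 55 with 1 animal left out. Pathway genes at an unadjusted p under 0.05 numbered 0 in the largest label code, 7 with array-number range as a block or the myelin covariate, 6 with the striatal or hippocampal covariate, 4 in arrays 1 to 6 or without PIO animals 14 and 15, and 5 to 14 with 1 animal left out. List medians moved in arrays 1 to 6 for other galactosyltransferases (-0.056), N-glycans (-0.075), N-acetyllactosamine (-0.079) and UDP-galactose supply (-0.028), in arrays 10 to 24 for other galactosyltransferases (-0.029) and mucin O-glycans (0.028), and for mucin O-glycans without a filter (0.0035). With 1 animal left out they ranged from -0.066 to 0.0015 for mucin O-glycans. The filter at the 60th percentile, 1 probe set per gene and the removal of shared-sequence probe sets drop some member probe sets, so those have no value there. The causes were not tested. The number of arrays limits each difference.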
